A study of Mus musculus with 9 samples.

Results

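Expression was examined for 36 genes of DNA replication and mitosis, out of 24421 genes with raw counts in the main olfactory epithelium (MOE) of the mouse. The members were a list of gene symbols taken by function, and all 36 were found and were among the 19775 genes tested. RNA-seq was performed on the whole MOE of mice labelled C57BL/6, at postnatal day 14, from a line lacking TAAR enhancer 2, an element in the cluster of trace amine-associated receptor genes. Each genotype had 3 libraries: WT (no deleted allele), het (1 deleted allele) and homo (both alleles deleted). The deletion was made by CRISPR-Cas9 injection into C57BL/6J zygotes and kept as a single knockout line. For its mouse lines in general the study states a mix of C57BL/6J and 129 backgrounds, without saying which lines. By the study's methods the genotypes were littermates and both sexes were used, while the labels give no sex and name no other allele or treatment.

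The MOE keeps dividing cells throughout life. Globose basal cells above the basal lamina divide and give rise to immature and then mature olfactory sensory neurons, and the dividing state is read from transcripts that are made mainly around S phase and mitosis. Genes of replication are switched on before S phase, largely through E2F factors. Genes of mitosis follow later, largely through the CHR element, bound by the DREAM and MuvB-FOXM1 complexes, and through CCAAT sites bound by NF-Y. Because whole tissue was sequenced, fewer dividing cells and less RNA per dividing cell cannot be told apart in any value given here.

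Promoter sequences show how the 2 classes of members differ in the letters next to their start sites. RefSeq windows of 300 bases that end 50 bases after the start (build GRCm38.p6) were found for 28 of the 36 members. Motifs were searched on both strands: E2F (TTTGGCGC, TTTCGCGC or TTTCCCGC), CHR (TTTGAA or TTCGAA, the latter its own reverse complement) and NF-Y (CCAAT). The E2F letters stood in the windows of 6 of 11 members with a role in S phase (Mcm3, Mcm5, Mcm6, Mcm7, Cdc6 and Cdt1), in 1 of 17 cyclin and mitotic members (Cdk1), and in 1.84% of all 32851 windows. The CHR letters stood in 2 of the 11 and in 13 of the 17, against 19.2% of all windows. An NF-Y match stood in 8 of the 11 and 15 of the 17, against 37.4% of all windows. A member was counted where any of its windows matched, whereas the share over all windows is per window, so the units differ. A match is a description of the letters and was not tested as a binding site.

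Windows of 4 members are shown because each pair shares a motif class while its members differed in the comparison of replicate numbers (number 1 against 2 and 3), where Mcm3 and Plk1 passed the threshold and Mcm6 and Top2a did not. Capitals mark the motif matches, and each sequence is read 5′ to 3′ on the strand of the gene. Mcm3 (chr1:20820263-20820562, minus strand) and Mcm6 (chr1:128359656-128359955, minus strand) encode subunits of the replicative helicase. In Mcm6 an E2F match (TTTGGCGC) overlaps with the reverse complement of another E2F form (TTTCGCGC). Of this window 9 bases lie in the GENCODE transcript, which starts further downstream than the RefSeq one. Plk1 (chr7:122159185-122159484, plus strand) encodes a mitotic kinase and Top2a (chr11:99024140-99024439, minus strand) the topoisomerase that untangles sister chromatids.
Mcm3: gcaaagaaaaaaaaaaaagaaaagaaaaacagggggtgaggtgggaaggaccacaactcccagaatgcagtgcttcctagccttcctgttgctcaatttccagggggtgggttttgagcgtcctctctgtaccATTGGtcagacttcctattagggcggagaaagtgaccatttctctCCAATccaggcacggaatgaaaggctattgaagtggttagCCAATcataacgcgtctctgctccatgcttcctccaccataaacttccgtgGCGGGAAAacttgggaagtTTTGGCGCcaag
Mcm6: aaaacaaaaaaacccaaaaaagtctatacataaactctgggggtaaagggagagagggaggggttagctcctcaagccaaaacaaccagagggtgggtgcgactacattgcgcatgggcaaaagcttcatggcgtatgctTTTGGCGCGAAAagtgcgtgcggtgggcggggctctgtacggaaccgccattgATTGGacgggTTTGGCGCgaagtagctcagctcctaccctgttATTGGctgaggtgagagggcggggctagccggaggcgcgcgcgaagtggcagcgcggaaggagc
Plk1: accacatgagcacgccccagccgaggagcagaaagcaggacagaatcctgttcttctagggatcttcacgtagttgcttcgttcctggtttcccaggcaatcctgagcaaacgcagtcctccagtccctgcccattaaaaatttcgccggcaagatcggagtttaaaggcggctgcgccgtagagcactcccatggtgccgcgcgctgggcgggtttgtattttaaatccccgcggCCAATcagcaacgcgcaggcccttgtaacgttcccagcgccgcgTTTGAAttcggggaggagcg
Top2a: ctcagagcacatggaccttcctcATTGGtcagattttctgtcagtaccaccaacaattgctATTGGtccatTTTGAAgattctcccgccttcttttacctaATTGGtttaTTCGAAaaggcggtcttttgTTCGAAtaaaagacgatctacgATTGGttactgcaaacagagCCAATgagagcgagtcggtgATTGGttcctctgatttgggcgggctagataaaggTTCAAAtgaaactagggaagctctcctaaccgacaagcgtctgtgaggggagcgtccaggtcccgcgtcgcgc
Mcm3 held E2F matches starting 19 and 38 bases after the RefSeq start, and Mcm6 held matches starting 110, 106 and 47 bases before it. Plk1 held a single CCAAT starting 14 bases before the start and a single TTTGAA 30 bases after it, whereas Top2a held 6 NF-Y and 4 CHR matches.

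**Figure D1:**
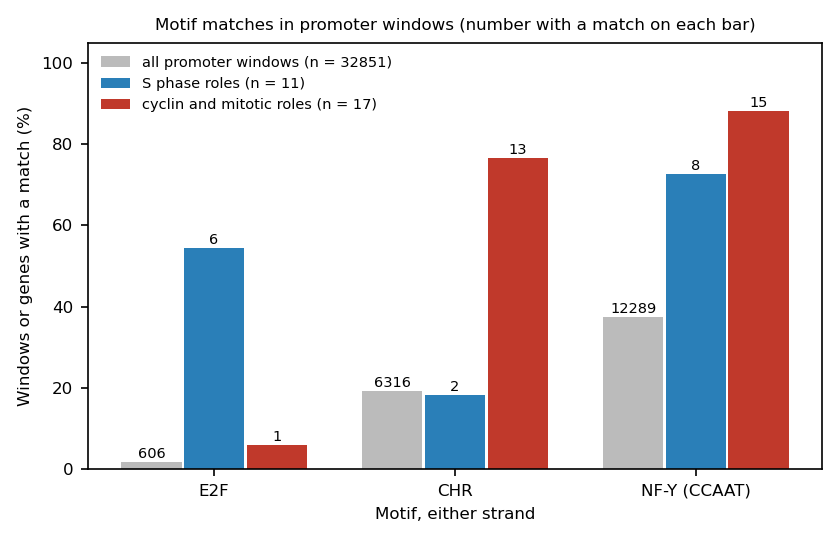
Share of promoter windows with a motif match on either strand (y axis, percent) for all 32851 RefSeq windows, 11 members with an S phase role and 17 cyclin and mitotic members, with the number of windows or genes with a match above each bar. E2F letters were found in 6 of 11 S phase members and CHR letters in 13 of 17 cyclin and mitotic members.

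Total counts ranged from 20527992 to 32262005 per library, and the 3 libraries with replicate number 1 held 20527992 to 22292647 while the others held 24905135 or more. Levels are given as CPM, read counts relative to the TMM-scaled size of each library, where 3 counts correspond to 0.0928 to 0.147 CPM. The members were well above that floor, with raw counts of 87 to 8298 per library. As a check of the genotype labels, Taar6, a receptor gene of the cluster with the deletion, was at 6.27 to 6.62 CPM in WT, 4.42 to 5.23 in het and 0.610 to 0.743 in homo. The study counts its replicates as mice, while the labels do not say what a replicate number marks or tie libraries to animals, so each p-value measures the spread between these libraries, part of which may be technical. WT replicate 3 stood apart from the other libraries: its summed markers of mature neutrophils (S100a8, S100a9, Ngp, Camp and Retnlg) reached 732 CPM against 28.6 to 204 in the other 8. Counts and medians over all members are therefore given with and without it for the comparisons against WT and of number 1. Estimates by role, coefficients of variation and values by GC content include it.

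Levels between genes were compared per kilobase of the merged annotated exons of each gene. On that scale the most abundant members were Pcna, the sliding clamp of the replication fork, at 48.2 CPM per kb, Top2a at 31.1 CPM per kb and Mki67, the Ki-67 protein that coats mitotic chromosomes, at 26.6 CPM per kb. Rrm1, the large subunit of ribonucleotide reductase, followed at 21.1 CPM per kb. The lowest were Gins2 at 1.49 CPM per kb and Cdc6, which loads the helicase, at 1.53 CPM per kb. The median member was at 8.16 CPM per kb.

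The genotype comparisons asked whether deletion of the enhancer on one or both alleles went with a change in these genes. None of the 36 members passed the threshold (Benjamini-Hochberg adjusted p under 0.05 in edgeR's quasi-likelihood test, fold over 1.5) in homo against WT, where 0.0202% of all genes were called. None was called in het against WT (0% of all genes), in homo against het (0.00506%) or in the test for any genotype difference (0.00506%). The number of members at an unadjusted p under 0.05 was also 0 in each of these tests, and DESeq2 and limma-voom called 0 members too. Most estimates were above 0: 33 of 36 members were higher in homo than in WT, with a median log2 fold change of 0.17 against 0.00 over all genes, and 29 of 36 were higher in het than in WT, with a median of 0.13. Over all genes 51.2% and 47.7% were higher in these comparisons, which share the WT libraries.

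Mki67 was at 276, 257 and 164 CPM in WT replicates 1 to 3, at 317, 273 and 274 CPM in het and at 323, 260 and 269 CPM in homo. WT replicate 3 lay far below the other 8 libraries, and the remaining WT libraries overlapped both other groups. The log2 fold change of Mki67 was 0.29 (SE 0.18) in homo against WT and 0.31 (SE 0.18) in het against WT. Without WT replicate 3 these were 0.09 and 0.11. Pcna was at 75.2, 71.8 and 70.4 CPM in WT, 69.3, 70.5 and 72.4 CPM in het and 75.5, 76.8 and 77.0 CPM in homo. The 3 homo libraries lay above all WT libraries, by a margin of under 1 CPM at the closest, and its log2 fold change in homo against WT was 0.08 (SE 0.07). Ccnb1, cyclin B1, which activates Cdk1 for mitotic entry, was at 29.0, 29.6 and 22.3 CPM in WT, 31.0, 33.9 and 31.6 CPM in het and 29.0, 31.8 and 36.6 CPM in homo. WT replicate 3 was again the lowest. The het libraries lay above all 3 WT libraries, while the homo libraries overlapped with them. The log2 fold changes of Ccnb1 were 0.27 (SE 0.14) in homo and 0.25 (SE 0.14) in het against WT. Without WT replicate 3 these were 0.14 and 0.13.

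By role, the estimates in homo against WT ran from −0.08 for Cdt1, a licensing factor, to 0.18 for Mcm6 among 10 licensing and helicase genes, of which 8 were higher. All 6 cyclin and Cdk1 genes, all 6 kinase, checkpoint and passenger genes and all 6 spindle and kinetochore genes had estimates above 0, with medians of 0.16, 0.18 and 0.19. The highest estimate was 0.31 (SE 0.15) for Tyms, thymidylate synthase, and without WT replicate 3 that of Tyms was 0.16. The homo libraries lay above all WT libraries for 3 members, Mcm6, Pcna and Tyms, chosen here for that order, against 2.97% of all genes. In homo against het the estimates ran from −0.22 for Ccne1, cyclin E1, to 0.31 for Gins2, a subunit of the helicase complex. Of the 36 members 27 were higher, against 51.4% of all genes, and the median over members was 0.04. Without homo replicate 1 the median was −0.04 with 15 higher, and without het replicate 3 it was −0.01 with 17 higher.

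The upward shift against WT rested largely on WT replicate 3. Without that library the median over members in homo against WT was 0.01 in place of 0.17, with 21 members higher in place of 33, and in het against WT it was −0.02 in place of 0.13, with 16 higher in place of 29. Without WT replicate 1 the medians were 0.34 and 0.31. These genotype fits held no term for number, so leaving out a library also changed the share of number 1 in its genotype. Within replicate number 1 the median log2 difference of homo from WT was 0.02, with 22 of 36 members higher, and within number 2 it was 0.07, with 23 higher. Within number 3 it was 0.43, with 34 higher. Over all genes 49.4%, 52.6% and 50.6% were higher within numbers 1, 2 and 3. For het against WT the medians within numbers 1, 2 and 3 were −0.04, 0.15 and 0.26. Over numbers 1 and 2 together, with equal shares of each, the median for homo against WT was 0.04. In that comparison 25 members were higher, against 52.6% of all genes. For het against WT it was also 0.04, with 24 members higher, against 51.0% of all genes.

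**Figure D2:**
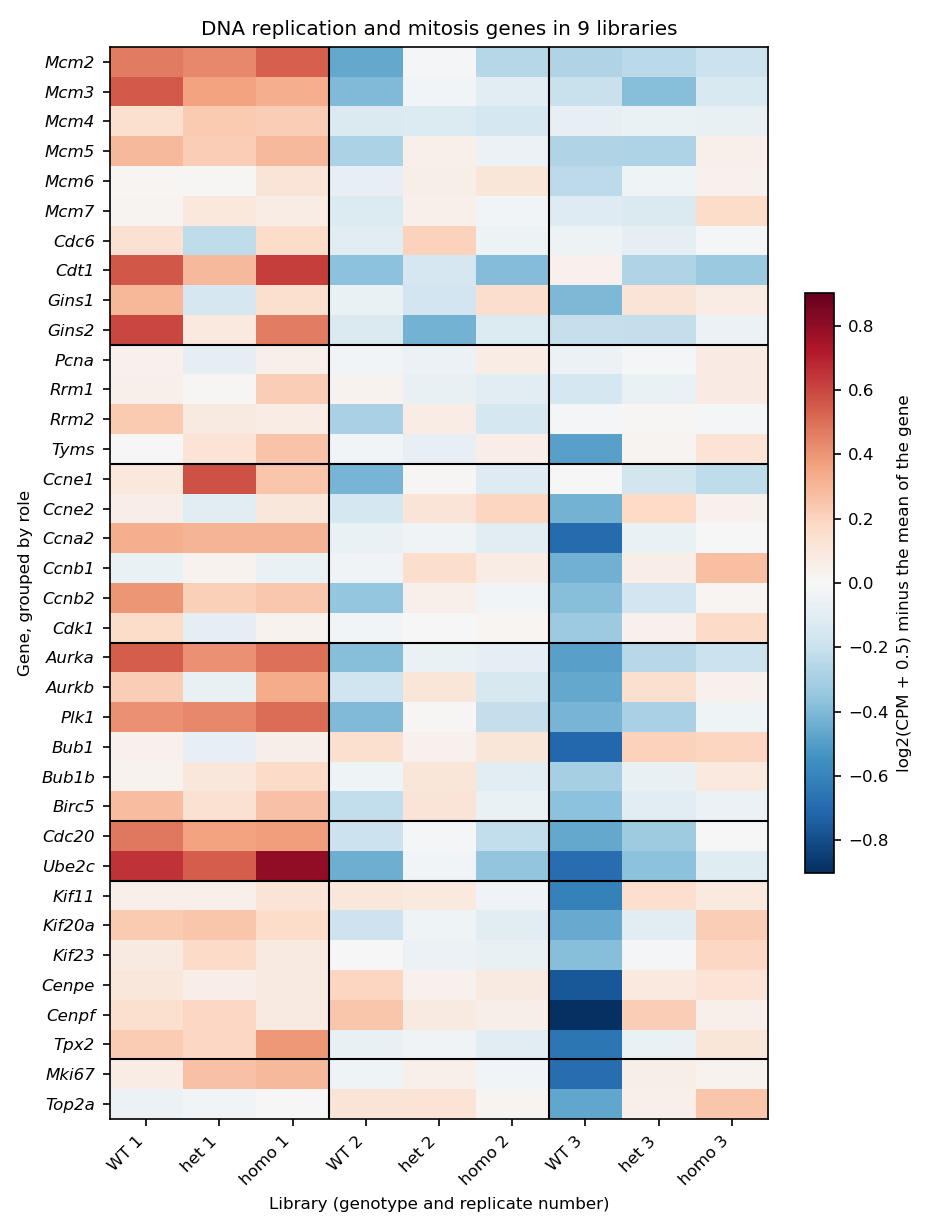
Each row is 1 of the 36 genes, grouped by role, and each column 1 of the 9 libraries, ordered by replicate number. Colour gives log2(CPM + 0.5) minus the mean of the gene; the column of WT replicate 3 is lowest for 25 of 36 genes, and the 3 columns of number 1 are above the other 6 for 16 of 36 genes.

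WT replicate 3 was the lowest of the 9 libraries for 25 of the 36 members, against 16.7% of all genes tested. Relative to the mean of WT replicates 1 and 2 the median log2 difference over members was −0.44, against −0.01 over all genes. The size of the difference varied with the role. Spindle and kinetochore genes had a median of −0.71 and the partners of the anaphase-promoting complex −0.76, whereas licensing and helicase genes had −0.25 and the clamp and nucleotide genes −0.13. This order depended on WT replicate 1, a library of number 1, in which many members were higher. Against WT replicate 2 alone the medians were −0.65 for spindle and kinetochore genes, −0.26 for the anaphase partners, 0.03 for licensing and helicase genes and −0.11 for the clamp and nucleotide genes. Against the mean of the 5 other libraries of numbers 2 and 3 they were −0.65, −0.37, −0.04 and −0.10. Over all 36 members these references gave −0.25 with 27 lower and −0.31 with 31 lower. Cenpf, a protein of the outer kinetochore, was at 35.3 CPM in WT replicate 3, against 82.4 and 88.4 CPM in the other WT libraries and 76.9 to 86.7 CPM in het and homo. It was the largest difference among the members, −1.26 on the log2 scale. Cenpe, the kinetochore motor, was at 27.8 CPM in that library against 48.8 to 54.5 CPM in the other 8. Bub1, a checkpoint kinase, was at 10.8 CPM against 17.0 to 20.7 CPM. In all 3 genes the other 8 libraries lay close together and did not overlap with WT replicate 3. No test was run on this library alone.

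Markers of several cell types moved with this library. Globose basal and neuronal progenitor markers (Neurog1, Neurod1, Kit, Lgr5, Ezh2 and Hes6) summed to 191 CPM in WT replicate 3 against 227 to 301 CPM in the others, although Lgr5 was highest in that library, at 21.6 CPM. Immature neuron markers summed to 1295 CPM against 1570 to 1800, and sustentacular markers to 2429 CPM against 3103 to 3630. The sustentacular sum was lower mainly through Cyp2g1, at 1117 CPM against 1830 to 2342 CPM, while Cbr2 was highest in WT replicate 3 and Sox2 lay within the range of the others. Markers of olfactory ensheathing glia summed to 187 CPM against 201 to 264 CPM. Beside the mature neutrophil markers, those of neutrophil precursors of the marrow, which are dividing cells, were higher, at 82.2 CPM against 9.18 to 29.4 CPM, and those of immune cells in general were at 241 CPM against 97.5 to 121 CPM. Markers of mature olfactory neurons, which define the tissue (Omp, Gnal, Adcy3, Cnga2, Ano2 and Stoml3), at 6275 CPM, lay within the range of the other libraries (5966 to 7021 CPM). The part of these differences in the members' levels was not tested. The median coefficient of variation over members was 25.2% in WT, 9.87% in het and 11.2% in homo. It was highest in WT for 30 of 36 members, against 49.4% of the 11514 genes with a mean of at least 10 CPM.

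The libraries also differed by replicate number. The 3 libraries with number 1 were compared with numbers 2 and 3 in a model with genotype and number. This split follows the labels but was chosen knowing from earlier results of these data that number 1 lay apart over all genes. Its p-values therefore describe a difference already seen and are not an independent test of it. In this comparison 9.16% of all genes were called and 5.52% were called higher. Among the members 8 were called, all of them higher in number 1. They were Mcm2, Mcm3, Cdt1 and Gins2 of licensing and the helicase, the mitotic kinases Aurka and Plk1, and both partners of the anaphase-promoting complex, Cdc20 and Ube2c. With no fold limit 15 members passed, all higher, against 16.6% of all genes that passed and were higher. Without WT replicate 1 this number of members was 8, and without het replicate 1 it was also 8, with the share of all genes not given for these fits. The 7 others were Mcm4, Mcm5, Ccne1, Ccna2, Ccnb2, Birc5 and Tpx2. In all, 33 of 36 members were higher, with a median log2 fold change of 0.23 against −0.02 over all genes. Without WT replicate 3 these were 27 members and 0.19. The number 1 libraries lay above all 6 others for 16 members, against 17.8% of all genes.

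Ube2c (chr2:164769898-164778822, plus strand, GRCm38), the ubiquitin-conjugating enzyme of the anaphase-promoting complex, was at 41.3, 38.4 and 45.8 CPM in WT, het and homo of number 1. It was at 19.2, 25.6 and 20.3 CPM in number 2 and at 16.1, 20.1 and 24.2 CPM in number 3. The number 1 libraries did not overlap with the others, and the log2 fold change was 1.01 (SE 0.12, adjusted p = 0.000977, edgeR quasi-likelihood). Mcm2 (chr6:88883474-88898780, minus strand), a helicase subunit, was at 40.3, 39.3 and 42.5 CPM in number 1, at 20.9, 28.8 and 24.3 CPM in number 2 and at 24.0, 24.4 and 25.3 CPM in number 3. Its groups did not overlap either, and its log2 fold change was 0.73 (SE 0.09, adjusted p = 0.00125). Aurka (chr2:172356190-172370535, minus strand), the kinase of the spindle poles, was at 24.0, 21.9 and 23.2 CPM in number 1 against 11.5 to 15.7 CPM in the others, a log2 fold change of 0.75 (SE 0.10, adjusted p = 0.00136). Plk1 was at 22.0, 22.3 and 23.4 CPM against 12.1 to 16.5 CPM, a log2 fold change of 0.69 (SE 0.10, adjusted p = 0.00212). Both kinases were without overlap between number 1 and the rest.

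The remaining called members had log2 fold changes of 0.77 for Cdt1, 0.63 for Mcm3, 0.62 for Gins2 and 0.62 for Cdc20, the activator of the anaphase-promoting complex. Cdt1 was at 11.5 to 14.6 CPM in number 1 and at up to 9.58 CPM in the others, Mcm3 at 30.8 to 36.1 CPM against 18.5 to 24.1 CPM, and Cdc20 at 23.4 to 25.4 CPM against 13.0 to 18.2 CPM, each without overlap. Gins2 was at 6.01 to 8.83 CPM in number 1 and at 4.08 to 5.43 CPM in the others. Members of the same complexes did not move equally: Mcm6 was at 48.6, 48.4 and 52.1 CPM in number 1 and at 40.7 to 51.8 CPM in the others, a log2 fold change of 0.07 (SE 0.06), and Mcm7 was at 0.09 (SE 0.07). Among the genes of mitosis, Top2a was at 155, 158 and 161 CPM in number 1 and at 116 to 191 CPM in the others. Its estimate was −0.05 (SE 0.12), with the number 1 libraries inside the range of the rest. Pcna was at 0.00 (SE 0.05), Ccnb1 at −0.05 (SE 0.12), Bub1 at −0.01 (SE 0.18) and Mki67 at 0.30 (SE 0.11, adjusted p = 0.0703). A p that misses the threshold does not show that these levels were alike.

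The 7 members past the adjusted p alone were spread over the roles. Mcm4, a helicase subunit, was at 40.2, 42.8 and 42.4 CPM in number 1 and at 32.4 to 34.7 CPM in the others, with no overlap, and its log2 fold change was 0.31 (SE 0.06). Ccna2, the cyclin of S phase and G2, was at 68.8, 67.6 and 67.7 CPM in number 1, against 33.6 CPM in WT replicate 3 and 50.9 to 54.9 CPM in the remaining 5 libraries, a log2 fold change of 0.47 (SE 0.12). These groups did not overlap, with or without WT replicate 3. Mcm5 was at 0.40 (SE 0.10), Ccnb2, cyclin B2, at 0.45 (SE 0.12), Ccne1 at 0.51 (SE 0.16), Birc5, the survivin subunit of the passenger complex, at 0.35 (SE 0.11) and Tpx2, which activates Aurka on the spindle, at 0.40 (SE 0.12).

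The other members did not pass in the number comparison. Rrm1 and Rrm2, the subunits of ribonucleotide reductase, were at 0.14 (SE 0.07) and 0.20 (SE 0.09), and Tyms was at 0.19 (SE 0.11). Cdc6 was at 0.05 (SE 0.14) and Gins1, of the helicase complex, at 0.16 (SE 0.17). Ccne2, cyclin E2, was at 0.03 (SE 0.13) and Cdk1, the mitotic kinase that cyclin B activates, at 0.06 (SE 0.11). Among the kinesins, Kif11, which separates the spindle poles, was at 0.10 (SE 0.13), and Kif20a and Kif23, which act in cytokinesis, were at 0.33 (SE 0.12) and 0.17 (SE 0.11). Cenpe was at 0.10 (SE 0.16), Cenpf at 0.18 (SE 0.21), Aurkb at 0.26 (SE 0.15) and Bub1b, the BubR1 checkpoint protein, at 0.15 (SE 0.09). For Kif11, Cenpe and Cenpf the estimate turned below 0 without WT replicate 3, at −0.01, −0.04 and −0.0049.

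**Figure D3:**
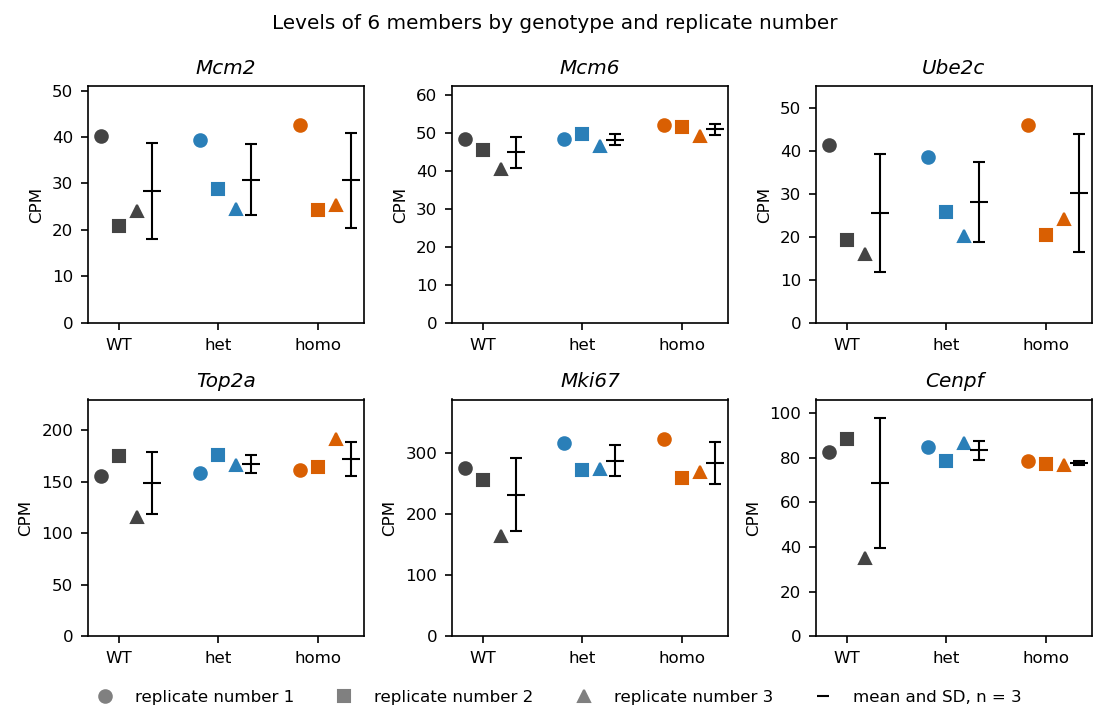
CPM of 6 members (y axes, from 0) in the 9 libraries by genotype, with symbols for replicate number and the mean and SD of 3 libraries as a bar. Number 1 lies above the other libraries for Mcm2 and Ube2c but not for Mcm6 or Top2a, and WT replicate 3 is the lowest library for Mki67 and Cenpf.

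**Figure D4:**
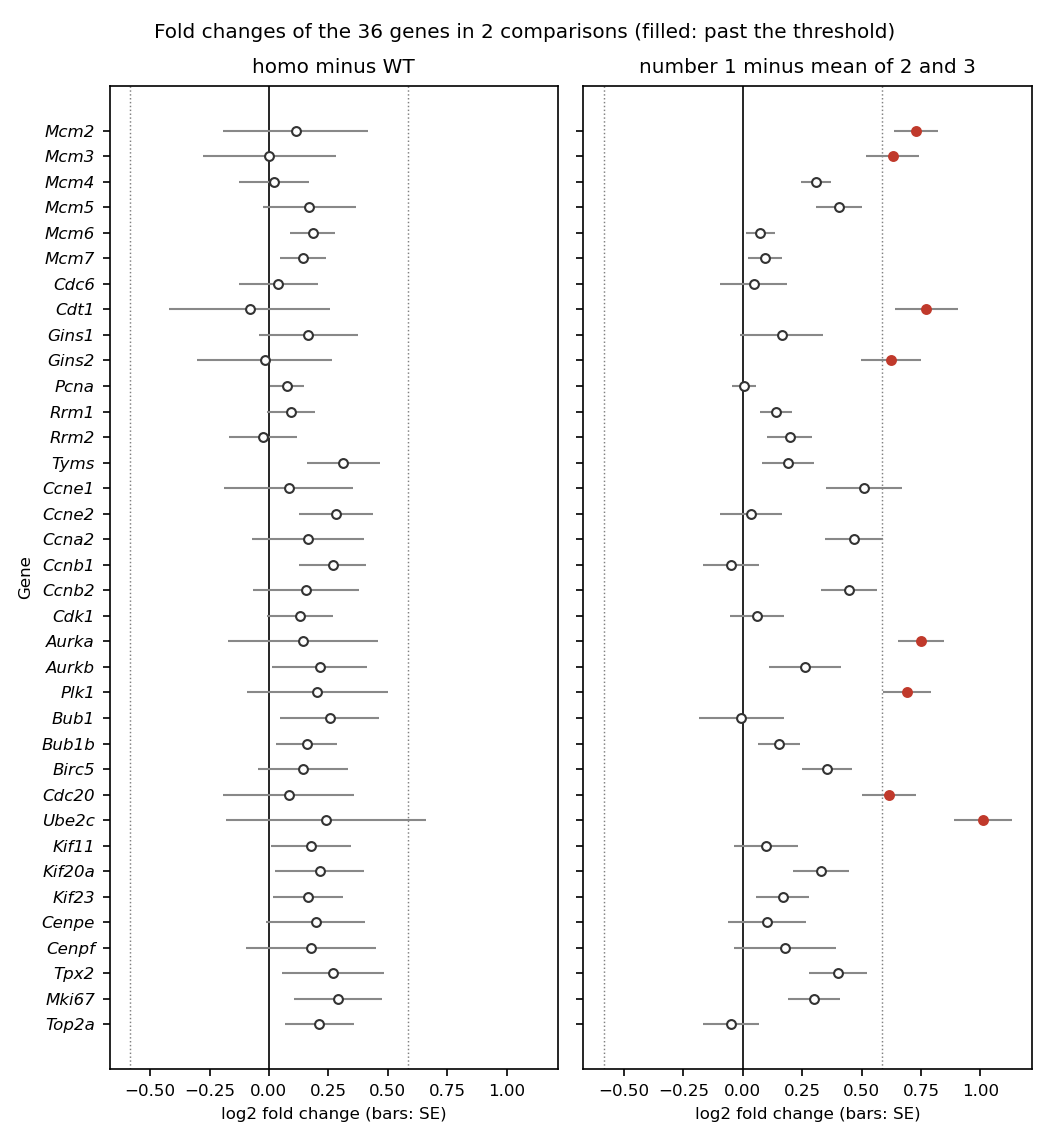
Log2 fold changes (x axes) with SE of the 36 genes for homo minus WT (left) and for replicate number 1 minus the mean of 2 and 3 (right), with dotted lines at the fold limit of 1.5. No gene is past the threshold on the left, and 8 are on the right, all above 0.

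The transcript GC content moved with this difference. The 8 called members had a GC content of 51.4% to 58.8%, with a median of 55.5%, while the other 28 had 36.3% to 53.4%, with a median of 46.7%. Over the 36 members the log2 fold change correlated with GC content with Pearson's r of 0.77 and Spearman's rho of 0.73. Over the 14995 genes with a mean of at least 1 CPM the values were 0.37 and 0.46. These are correlations across genes of the same 9 libraries, and genes are not independent replicates. Over all genes the median log2 fold change was −0.22 in the fifth with the lowest GC content and 0.24 in the fifth with the highest. Against the median of genes within 1 percentage point of GC, 35 of 36 members were higher in number 1, Mcm7 being the exception, by a median of 0.32.

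**Figure D5:**
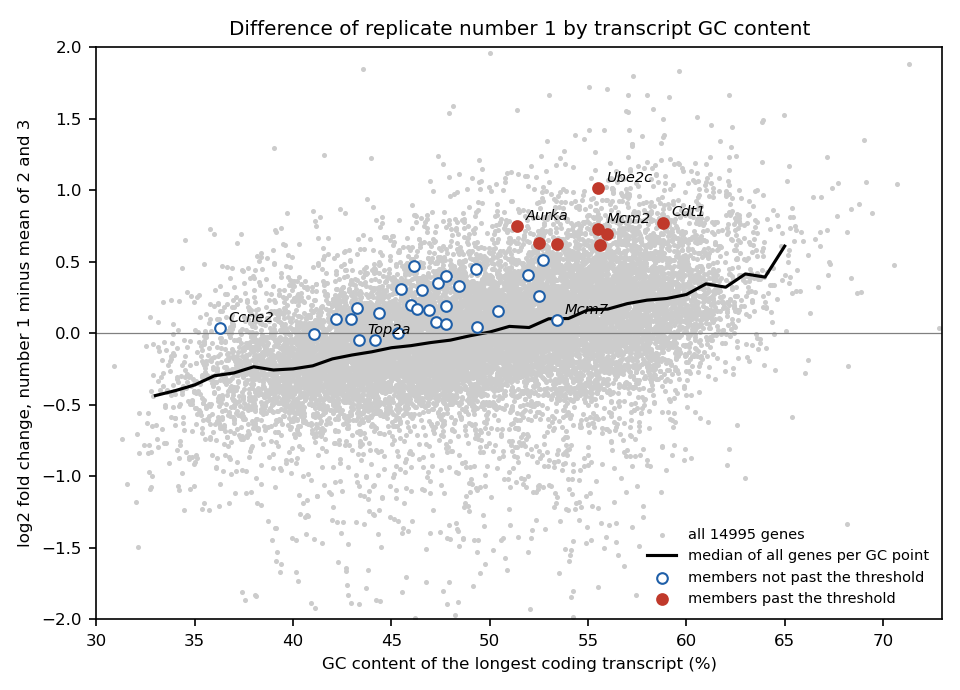
GC content of the transcript (x axis, percent) against the log2 fold change of replicate number 1 over numbers 2 and 3 (y axis) for 14995 genes (grey) and the 36 members. The 8 members past the threshold (filled) lie at 51.4% to 58.8% GC, and the black line, the median of all genes per GC point, rises with GC content.

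With a GC and length trend removed from each library, an alternative added after the data were seen, 2 members were called in place of 8. These were Ube2c at 0.84 and Aurka at 0.70. The other 6 had log2 fold changes of 0.46 to 0.56, under the fold limit. In that fit 16 members passed at any fold and the median over members was 0.32. The share of all genes called in that fit, and in the next one without WT replicate 1, is not given here. Those counts of members thus stand without a background. Without WT replicate 1, 5 members were called, with Mcm3, Gins2 and Cdc20 falling under the fold limit. Gins2 then also missed the limit on the adjusted p, at 0.0590 in edgeR's quasi-likelihood test. Without WT replicate 3, 7 were called, with Gins2 at 0.57 and Cdc20 at 0.56, under the limit, and Ccne1 past it at 0.62. Over all 19613 genes of that fit, 1287 were called higher and 916 lower. Mcm3 was also under the limit without WT replicate 2, at 0.55, and Cdc20 without homo replicate 2, at 0.56.

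Marker lists differed along the same line. In number 1 the globose basal and neuronal progenitor markers named above summed to 287 to 301 CPM, against 191 to 249.9 CPM in the other libraries, and 2 of 6, Neurog1 and Neurod1, were called higher. Mature neutrophil markers summed to 28.6 to 55.9 CPM against 84.4 to 732 CPM, and 3 of 5 were called lower. Cartilage and bone markers summed to 1094 to 1492 CPM in number 1 and to 765 to 892 CPM in the others. Immature neuron markers summed to 1785 to 1800 CPM against 1295 to 1680 CPM, horizontal basal cell markers to 161 to 254 CPM against 86.4 to 158 CPM, and ciliated respiratory cell markers to 599 to 655 CPM against 404 to 541 CPM. B cell precursor markers were lower in number 1, at 8.39 to 11.3 CPM against 12.7 to 25.4 CPM. None of these sums overlapped, whereas those of mature neurons, sustentacular cells, erythroid cells, marrow neutrophil precursors, immune cells in general and ensheathing glia did. Some markers did not follow their sum. Tekt1 of the ciliated list was lower in number 1, at 40.2 to 41.9 CPM against 43.9 to 48.5 CPM. Ccdc39 of that list, Hdac2 and Stmn2 of immature neurons and Icam1 of horizontal basal cells lay within the range of the other libraries. Ezh2 of the progenitor list and Vpreb1 of B cell precursors also did. Lgr5 and Hes6 of the progenitor list, Krt14 of horizontal basal cells and Acan of cartilage and bone overlapped between number 1 and the others. So did Ngp and Camp of mature neutrophils and Vpreb3 of B cell precursors. Of the progenitor markers named above, Neurog1, Neurod1 and Kit were higher in number 1 without overlap. Bglap of cartilage and bone was lower in het and homo of number 1, at 27.0 and 24.1 CPM against 36.6 to 44.8 CPM in numbers 2 and 3. The part of these cells and of depth in the members' difference was not tested.

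Between numbers 3 and 2 none of the members was called by edgeR (0% of all genes) or by DESeq2, 0 were at an unadjusted p under 0.05, and the median was −0.08. Without WT replicate 3 that median was 0.04. In the tests of whether the difference of number 1 varied with genotype, no member was called, for homo against WT (0% of all genes) or for het against WT (0%). At an unadjusted p under 0.05 stood 0 members in the first and 1 in the second, Aurkb, the kinase of the passenger complex, at −0.75 (SE 0.27). The estimates of these tests were below 0 for 32 and 34 of the 36 members, whereas 50.3% and 51.7% of all genes were above 0. These estimates rest on 1 library of number 1 per genotype. Within WT all 36 members were higher in number 1, by a median of 0.41. Without WT replicate 3, 30 of 36 were higher in WT replicate 1 than in WT replicate 2, by a median of 0.29. Of all 19775 genes 9790 were higher there. In number 1, 25 members were higher within het and 28 within homo, by medians of 0.14 and 0.21. Over all genes 48.5%, 48.4% and 49.0% were higher in number 1 within WT, het and homo.

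Other genes of the same processes were counted in lists that do not hold the members. In number 1, 9.16% of all genes were called and 48.0% were higher. Of 30 further S phase genes, 21 were higher in number 1, with Chaf1b, a chromatin assembly subunit, called higher at 0.91 (SE 0.11) and Rfc4, a clamp loader subunit, called lower at −0.88 (SE 0.14). Of 50 further mitosis genes, 42 were higher and 6 were called, all higher: Kif18b, Cdca3, Gtse1, Foxm1, Ska1 and Spc24. Kif18b, a kinesin of the spindle, had the largest value of these at 0.94 (SE 0.10). Of 20 inhibitors and G1 genes, 13 were higher and 1 was called, the inhibitor Cdkn1c at 1.18 (SE 0.08). Without WT replicate 3, 20 of 30, 37 of 50 and 13 of 20 were higher. Among the mitosis genes Kif18b, Cdca3, Gtse1 and Foxm1 were then called higher and Hjurp lower, and among the inhibitors and G1 genes Cdkn1a, Cdkn1c and E2f4 were called higher. In homo against WT none of these 100 genes was called, and 28 of 30, 45 of 50 and 10 of 20 were higher, against 51.2% of all genes. Without WT replicate 3, in a fit with no term for number, 17 of 30, 21 of 50 and 8 of 20 were higher, against 48.9% of all genes.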

How the data were processed

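Whole MOE RNA was made into directional, polyA-selected libraries. Per the submitters' notes, reads were trimmed with Trimmomatic 0.36, mapped with HISAT2 2.1.0 to GRCm38/mm10 and counted with featureCounts of Subread 1.6.2; the annotation release, strand option and treatment of multi-mapping reads are not given in the sources used here. The files deposited by the authors hold raw counts by gene symbol and a signal, the counts divided by a DESeq2 1.20.0 size factor per library. The ratio of the 2 tables gave factors of 0.806 to 1.28; tests used the raw counts.

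Genes with at least 10 counts in all were tested in edgeR 4.0.16 by quasi-likelihood (R 4.3.3, TMM, two-sided), with Benjamini-Hochberg adjustment over all genes tested. A gene was called at adjusted p under 0.05 and fold over 1.5. Genotype fits held all 9 libraries and no covariate; number fits held genotype and number. SE came from the fold change and the F statistic. CPM used TMM library sizes, and log2 levels a pseudocount of 0.5. GC content, length and positions came from GENCODE vM21. Alternatives with DESeq2 1.42.0 and limma 3.58.1, other filters and scalings, the replicate block and each library left out are given in the closing section. The further lists without WT replicate 3, the other references for that library and number 1 within WT without it were added after seeing the data. The scripts were tested on simulated data. For progenitor cells, 1 marker is not reported here. All 36 members are named, by role. The members, lists, tests and motifs were chosen with earlier results of these data known. Deviations from the group means correlated, for the same number, at 0.457 to 0.682 between WT and het. Between het and homo the range was 0.195 to 0.807, and between WT and homo −0.085 to 0.532. Each WT and het library correlated most with its own number in the other genotype. Number 2 of het correlated more with number 3 of homo (0.583) than with number 2 (0.360). Number 3 of het correlated more with number 2 of homo (0.527) than with number 3 (0.195). The values thus do not show that the numbers pair het with homo beyond number 1. WT and homo were not taken as paired.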

Additional observations from a re-analysis of the deposited data

How the results depend on the processing

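No member was called in any genotype comparison under any alternative run, including the replicate block, with which the members' medians were 0.19 for homo against WT, 0.15 for het against WT and 0.04 for homo against het; the block changed no call of a member. Counts over all genes moved. In homo against WT 4 genes became 1 with limma-voom and 1 with only the 2 genotypes in the fit, and 1 to 4 with a library left out (2 without homo replicate 1, and 1 without replicate 2 or 3 of any genotype). In homo against het 1 gene became 5 with DESeq2, 4 without a filter, 4 under library totals, 2 with the newer quasi-likelihood estimate, and 3 each with the replicate block, a term for number 1, GC and length offsets, and the block with offsets. For any difference 1 became 6 with DESeq2, 2 with the newer estimate, and 3 each with the block, the term for number 1 and the offsets. For number 1, 1811 genes and 8 members became 6072 and 15 with no fold limit, 2 members with the offsets, and 1105 to 2203 genes and 5 to 8 members with a library left out, the lowest being 1105 genes without homo replicate 1 and 5 members without WT replicate 1. For number 3 against 2, 0 genes became 35 with DESeq2 and 0 to 245 with a library left out, 245 being without homo replicate 3. The cause of these moves was not tested, apart from the dropped fold limit. Some estimates near 0 changed sign. With a library left out the log2 fold changes ran, in homo against WT, from −0.51 to 0.221 for Cdt1; in het against WT, from −0.0629 to 0.0057 for Pcna and −0.49 to 0.00904 for Gins2; and in homo against het, from −0.126 to 0.0553 for Mki67, −0.0801 to 0.0849 for Ccnb1 and −0.393 to 0.0606 for Ccne1, with Mki67 at 0.0126 under the offsets and at 0.00786 with the block and offsets. For number 1 they ran from −0.0299 to 0.0302 for Pcna, −0.154 to 0.056 for Ccnb1, −0.153 to 0.0938 for Bub1, −0.144 to 0.0453 for Top2a, −0.0385 to 0.212 for Cdc6, −0.044 to 0.308 for Gins1, −0.133 to 0.177 for Ccne2, −0.0792 to 0.14 for Cdk1, −0.0385 to 0.208 for Cenpe, −0.0144 to 0.181 for Kif11 and −0.00486 to 0.334 for Cenpf. There Pcna was at −0.0135 with library totals and at −0.00793 with no filter, and under the offsets Mcm7 was at −0.024, Ccnb1 at 0.0581, Bub1 at 0.177 and Top2a at 0.0737. For number 3 against 2 they ran from −0.0196 to 0.0396 for Pcna, −0.297 to 0.00457 for Mki67, −0.271 to 0.0741 for Ccnb1 and −0.595 to 0.0419 for Cenpf, with Pcna at −0.00509 under library totals. The lowest raw count of a member was 87, which bears on detection only; 3 libraries per genotype limit the precision.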
